A study of Mus musculus with 18 samples.

Results

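RNA of naive CD4 T cells that over-expressed the whole miR-232724 microRNA cluster was compared with RNA of the same cells from wild-type mice. There were 3 libraries of cluster Tg mice, which carry T cell-specific over-expression of the entire cluster, and 3 libraries of wild-type mice (WT), all of the C57BL/6 strain. The series further holds mice with T cell-specific over-expression of 1 family member (called miR-27 Tg, miR-24 Tg and miR-23 Tg) and mice that lack both copies of the cluster in T cells (DKO), with 3 libraries each, which are used here only beside single genes and in 1 contrast. The labels name neither the promoter of the transgene nor the number of founder lines. Nor do they tie libraries to individual animals, and the spread that p-values rest on may thus be technical in part. Cells were sorted by flow cytometry as CD4+CD25-CD62Lhi, total RNA with its small RNAs was extracted, and TruSeq libraries were sequenced on an Illumina HiSeq. Of the 23953 gene rows of the deposited table, 10538 were taken into the comparison because they reached 1 RPKM, a read density that corrects for the length of a transcript and the depth of a library, in at least 3 of the 6 libraries. Slc18a2, with 1.18, 1.04 and 0.934 RPKM in cluster Tg and 0.796, 1.001 and 0.712 in WT, was just inside this limit, and Napsa, with 0.9999, 1.04 and 1.79 against 0.242, 0.246 and 0.0379, just outside it.

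A microRNA is cut from a hairpin in a longer transcript and loaded into an Argonaute protein, which it guides to messenger RNAs whose 3′ untranslated regions (3′ UTRs) match its seed, the bases near its 5′ end. Such messengers are translated less and are often degraded, so their level can fall. The 3 hairpins of the cluster lie side by side and are transcribed together, and members of the cluster are known in T cells for limiting helper cytokines and regulatory T cell function.

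The mature strands show which messengers each microRNA could pair with. They are given 5′ to 3′ from RefSeq (GRCm38.p6), with the seed, bases 2 to 8, in capitals.
miR-23a-3p: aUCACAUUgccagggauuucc
miR-27a-3p: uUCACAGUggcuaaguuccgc
miR-24-3p: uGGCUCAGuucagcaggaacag
The seeds of miR-23a and miR-27a both begin with UCACA, and that of miR-24 shares no such start with them. The 3 hairpins lie next to each other on the plus strand of chromosome 8, Mir23a at chr8:84208518-84208592, Mir27a at chr8:84208672-84208758 and Mir24-2 at chr8:84208815-84208921.

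The hairpins of the cluster were far higher in every cluster Tg library than in any WT library. RPKM values of hairpin rows are hard to read as levels, because a single read was worth 93.2 RPKM on Mir23a, 43.6 on Mir27a and 17.2 on Mir24-2 at the depth of WT replicate 1. The whole reads behind the values were therefore recovered from the size of these steps. Mir23a had 2616, 902 and 517 reads in cluster Tg replicates 1 to 3, against 3, 1 and 0 in WT. Mir27a had 5463, 2009 and 1195 reads in cluster Tg, against 3, 5 and 2 in WT. Mir24-2 had 5648, 2010 and 1442 reads in cluster Tg, against 2, 3 and 1 in WT. All 3 hairpins were highest in cluster Tg replicate 1 and lowest in replicate 3, and limma called all 3 higher, with adjusted p = 0.013 for Mir23a, 0.00103 for Mir27a and 0.000569 for Mir24-2. Together they held 13727, 4921 and 3154 reads in cluster Tg, which came to 0.0459%, 0.0175% and 0.00994% of the estimated library, against 8, 9 and 3 reads in WT. The library preparation selects for longer RNA, so these reads are taken to come from the hairpin or its precursor and not from the mature microRNA. Their source was not tested. The hairpins of the second copy of the cluster, Mir23b, Mir27b and Mir24-1, did not pass the filter.

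**Figure D1:**
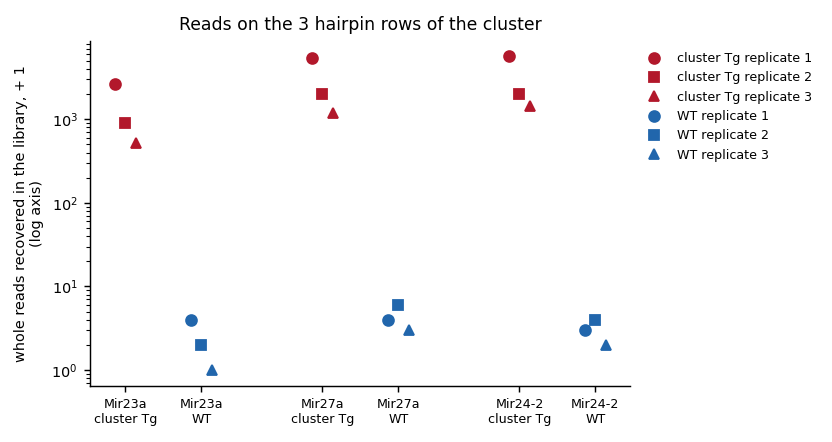
Whole reads recovered, plus 1, on a log axis, for the 3 hairpin rows of the cluster in each cluster Tg and WT library, with 1 point per library. Cluster Tg libraries held 517 to 5648 reads per hairpin and WT libraries 0 to 5.

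The libraries of each genotype resembled their own kind. Correlations of log2(RPKM + 1) were 0.943 to 0.948 among cluster Tg libraries and 0.939 to 0.945 among WT libraries, against 0.883 to 0.926 between the genotypes. Depth estimated from the read steps was 28100000 to 31700000 reads in cluster Tg and 19700000 to 24300000 in WT, so the cluster Tg libraries were deeper throughout. On the second principal component of all 18 libraries of the series, cluster Tg lay between -43.95 and -27.95 and WT between 21.6 and 27.1, and the labels do not say in which batches libraries were made. The sex-linked transcripts were mixed in both genotypes, and cluster Tg replicate 2 held both Xist (45.8 RPKM) and Ddx3y (20.1 RPKM).

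The cells of both genotypes had the transcripts of naive helper T cells. Cd4 stood at 552, 561 and 542 RPKM in cluster Tg and 506, 481 and 404 in WT, and was not called (adjusted p = 0.167). Of 13 tested identity genes, 2 rose and 1 fell, among them the surface antigen Thy1 (652, 629 and 698 against 466, 503 and 505) and the lymph node homing receptor Ccr7 (179, 212 and 234 against 271, 309 and 278). With 1 of the 6 libraries left out in turn, the call of Thy1 was lost in all 6 fits and that of Ccr7 in 5 of them. The T cell factors Tcf7 and Lef1, the interleukin-7 receptor Il7r and the receptor chain Cd3e were not called.

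Many genes differed between the genotypes, in both directions. Limma called 2288 of 10538 rows (21.7%) at an adjusted p under 0.05, of which 1283 (12.2%) were higher and 1005 (9.54%) lower in cluster Tg. The 3 cluster Tg values and the 3 WT values did not overlap in 43.2% of all tested rows, and in all 2288 called ones. Large changes were mostly rises, 306 of the 353 called rows that changed by a log2 of 1 or more, while the median over all tested rows was -0.00412. Of the rows called higher, 150 passed the filter only because cluster Tg was at 1 RPKM or more and WT was below it, and of those called lower, 21 only because WT was. Such rows had to differ in that direction, so their calls, p-values and part in list shares are no support. Genes named below that passed only through cluster Tg include Gzmk, Gpm6b, Angptl2, Axl, Alox5ap, Emp1, Tbx21, Ptger2, Cd8a, Il21, Ifng and Tgfb3. The counts depend on the libraries: leaving out 1 of cluster Tg replicates 1, 2 and 3 gave 1243, 1409 and 1805 calls, and leaving out 1 of WT replicates 1, 2 and 3 gave 1273, 1228 and 1582. Rows called in the full comparison and in each of these 6 numbered 633 higher and 329 lower. Rises made up 56.1% of the calls, against 45.5% with quantile normalisation and 69.3% after the cluster hairpins were taken out and the libraries brought to equal sums, which moved the median of all rows to 0.0622.

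**Figure D2:**
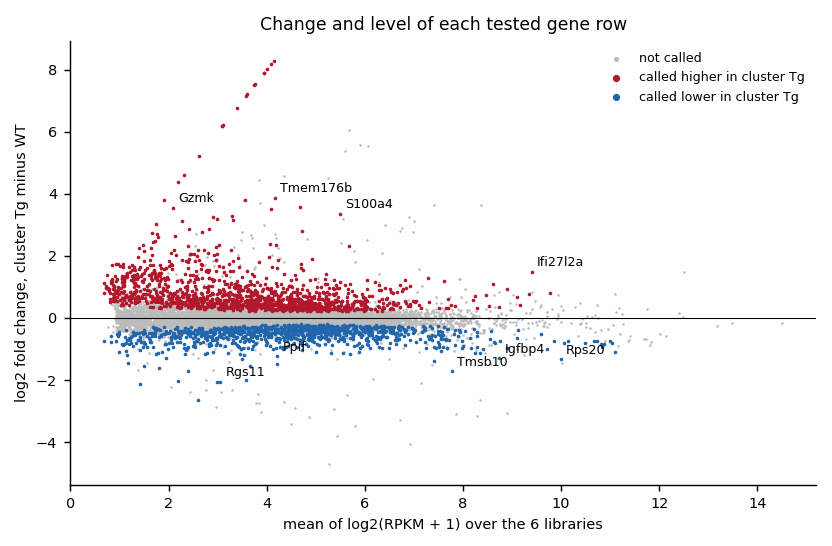
Log2 fold change, cluster Tg minus WT, against the mean of log2(RPKM + 1) over the 6 libraries for every tested gene row except the 3 hairpins of the cluster. Called rises (red) reach further from 0 than called falls (blue), and the called points above Tmem176b (3.88), up to a log2 of 8.28, are hairpin rows listed at 0 in all WT libraries.

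Among the 25 largest rises, 16 were other microRNA hairpin rows, and all 16 were listed at 0 in the 3 WT libraries. They rested on few reads: Mir425 had 7, 8 and 12 in cluster Tg, Mir150 had 2, 2 and 1, and Mir29a, with 18, 9 and 3, had the most. In 15 of the 16, no cluster Tg library held over 12 reads, and the WT libraries, which were shallower, held 0. Over all hairpin rows outside the cluster, 21 of 183 tested were called higher and 1 lower. Without hairpin and small nucleolar RNA rows, 2261 rows were called, 1257 higher and 1004 lower.

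The other 9 of the 25 were Snora24, a small nucleolar RNA, and 8 protein-coding genes: Tmem176b, Tmem176a, S100a6, Gzmk, Ly6c2, S100a4, Nrp1 and Cxcr3. Snora24 had 48.1, 8.99 and 4.63 RPKM in cluster Tg and under 0.01 in every WT library, and its call was lost in 2 of the 6 fits with a library left out. Tmem176b, which encodes a membrane protein of the MS4A-like family, had 104, 52.7 and 56.4 RPKM in cluster Tg, against 3.6, 5.34 and 2.47 in WT (log2 fold change 3.88 ± 0.315 SE, adjusted p = 0.00183). Its neighbour Tmem176a had 67.5, 33.6 and 33.8 RPKM in cluster Tg, against 1.74, 2.46 and 2.32 in WT (3.79 ± 0.276, adjusted p = 0.00125). Both were highest in cluster Tg replicate 1, and the lowest cluster Tg library was several times the highest WT library. Nrp1, a co-receptor for semaphorins also found on regulatory T cells, had 42, 24.8 and 24.7 RPKM in cluster Tg and 2.2, 2.33 and 1.93 in WT (3.28 ± 0.208, adjusted p = 0.000836). Gpm6b, a membrane proteolipid best known from neurons, had 14.5, 11.9 and 13.9 RPKM in cluster Tg and 0.614, 0.732 and 0.59 in WT (3.13 ± 0.1, adjusted p = 4.5e-05). Its libraries lay close together in both genotypes, as did those of the secreted Angptl2 (7, 6.39 and 6.96 against 0.53, 0.278 and 0.432). The receptor tyrosine kinase Axl had 14.9, 8.91 and 7.21 RPKM in cluster Tg, against 0.673, 0.986 and 0.653 in WT. Plac8, the leukotriene cofactor Alox5ap and the epithelial membrane protein Emp1 rose too, but 1 library stood out: Plac8 had 34.9 RPKM in cluster Tg replicate 1 and 6.96 and 9.52 in the other cluster Tg libraries, against 0.537 to 1.43 in WT. Gpm6b, Angptl2, Axl, Plac8, Alox5ap and Emp1 were picked after their values were seen. They came from the 25 largest rises by the same rule without hairpin and small nucleolar RNA rows, at ranks 11, 21, 19, 13, 18 and 20. Others of that order, among them Nrn1 (rank 14) and Dleu2 (rank 24), were not picked. Apart from Plac8, the 6 passed the filter only through cluster Tg, so that they had to be higher there.

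**Figure D3:**
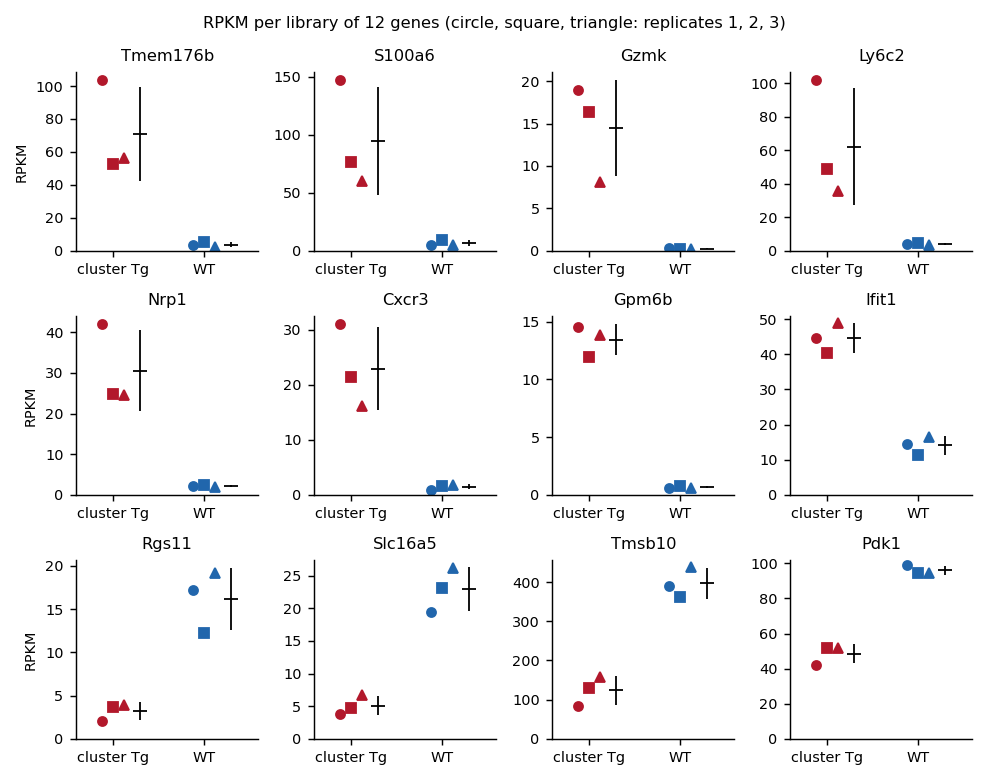
RPKM in each library of 12 genes, cluster Tg left of WT, with the mean ± SD beside the points (n = 3 each); every vertical axis starts at 0. Cluster Tg replicate 1 (circle) is the highest of the cluster Tg libraries for Tmem176b, S100a6, Gzmk, Ly6c2, Nrp1, Cxcr3 and Gpm6b.

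S100 proteins and annexins, calcium-binding proteins at membranes and the cytoskeleton, are typical of effector and memory T cells. Of 20 tested genes of this list, which also holds galectins and cytoskeletal partners, 16 rose and none fell (80% higher, against 12.2% of all rows), with a median log2 fold change of 0.90; 13 of the 16 were called with each library left out. S100a6 had 147, 76.8 and 60.1 RPKM in cluster Tg and 5.39, 9.5 and 5.16 in WT (3.58 ± 0.361, adjusted p = 0.00305). S100a4, a metastasis-linked member, had 224, 141 and 92.3 RPKM in cluster Tg and 13.3, 19.1 and 8.67 in WT (3.36 ± 0.378, adjusted p = 0.00402). In both, the libraries followed the order of the hairpins, replicate 1 highest and replicate 3 lowest. Anxa2, which binds membranes together with S100a10, had 84.7, 61 and 61.5 RPKM in cluster Tg and 9.04, 11.4 and 6.81 in WT, and S100a10 itself 383, 358 and 427 against 227, 238 and 247. The scaffold protein Ahnak, the intermediate filament Vim, the actin-capping Capg and the galectins Lgals1 and Lgals3 rose as well. In the fit that shared the spread of all 18 libraries, 12 of the 20 were called higher.

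Some surface antigens and adhesion molecules rose as well, while about as many or more were not called. Ly6c2, an antigen of memory T cells whose reads can be shared with its close copy Ly6c1, had 102, 48.8 and 35.6 RPKM in cluster Tg and 4.06, 4.59 and 3.4 in WT (3.52 ± 0.359, adjusted p = 0.00307). Ly6a, known as Sca-1, had 294, 258 and 335 RPKM in cluster Tg, against 116, 132 and 138 in WT. Of 15 tested Ly6 and GPI-anchored antigens 6 rose (40%, against 12.2% of all rows) and 9 were not called. Of 23 integrins and adhesion molecules 11 rose (47.8%), 1 fell and 11 were not called, with 9 of the 11 rises called with each library left out. Itgb1, the beta-1 integrin chain, had 148, 99.7 and 98.7 RPKM in cluster Tg and 21, 23.1 and 21.9 in WT (2.31 ± 0.161, adjusted p = 0.0011), and its partner Itga4 had 183, 146 and 126 against 82.1, 73.8 and 78. The hyaluronan receptor Cd44, the standard marker of antigen-experienced T cells, had 24.7, 20.7 and 19.4 RPKM in cluster Tg against 9.31, 10.1 and 12.7 in WT. The adhesion molecule Itgb3 was the only one of the list called lower, and its call was lost in all 6 fits with a library left out.

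Chemokine receptors steer T cells to tissues, and most of those tested were higher in cluster Tg. Of 10 tested, 7 rose (70%, against 12.2% of all rows) and Ccr7 fell, with a median log2 fold change of 1.63. Cxcr3, a receptor of inflamed tissue on type 1 helper cells, had 31, 21.5 and 16.1 RPKM in cluster Tg and 0.91, 1.59 and 1.86 in WT (3.25 ± 0.256, adjusted p = 0.00157). The gut homing receptor Ccr9 had 22, 8.87 and 12 RPKM in cluster Tg and 1.92, 2.2 and 3.23 in WT. Cxcr5, which brings helper cells to B cell follicles, had 9.6, 9.83 and 10.5 against 3.02, 2.53 and 2.44 (1.58 ± 0.0904, adjusted p = 0.000569). Ccr4, Ccr6 and Cxcr6 rose too, and the call of Ccr2 was lost in 4 of the 6 fits with a library left out. The inflammatory chemokine Ccl5 had 42.4, 27.4 and 9.82 RPKM in cluster Tg and 3.23, 2.27 and 0.295 in WT (3.18 ± 0.622, adjusted p = 0.0168), a call lost in 2 of those fits. Of 18 receptors for lipids and lymphocyte egress, 6 rose (33.3%), 1 fell and 11 were not called, among them S1pr1, which lets T cells leave lymph nodes (362, 377 and 336 RPKM against 253, 272 and 199), the prostaglandin E2 receptor Ptger2 (4.28, 3.36 and 4.1 against 0.865, 0.912 and 0.868), and the lysophospholipid receptor Lpar6 (33, 30.1 and 37.7 against 11.8, 12.6 and 17.5).

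Transcription factors of helper T cell lineages were higher in several lineages at once. Of 26 tested, 17 rose and none fell (65.4%, against 12.2% of all rows), with a median log2 fold change of 0.70, and 12 of the 17 were called with each library left out. Tbx21, the factor of type 1 helper cells, had 4.76, 3.48 and 2.06 RPKM in cluster Tg and 0.3, 0.35 and 0.309 in WT (1.70 ± 0.227, adjusted p = 0.00576). Maf, which drives interleukin-21 and interleukin-10, had 14.6, 13 and 13.2 RPKM in cluster Tg and 3.86, 3.42 and 3.49 in WT (1.67 ± 0.0808, adjusted p = 0.000295). The Maf libraries were tight in both genotypes, while Tbx21 fell off towards cluster Tg replicate 3. Tbx21 passed the filter only through cluster Tg, so that it had to be higher there. Rora, of type 17 helper cells, had 7.11, 4.98 and 3.72 against 1.72, 1.43 and 1.28, and Bcl6, the repressor of follicular helper cells, 18.6, 16.3 and 13.7 against 9.54, 6.18 and 10.2. Id2, an inhibitor of E proteins, had 219, 168 and 136 RPKM in cluster Tg, against 90.2, 91.8 and 69.5 in WT. Foxp3, of regulatory T cells, had 5.01, 4.81 and 4.51 against 2.96, 2.59 and 2.6. Gata3, of type 2 helper cells, had 38.4, 34.9 and 24.6 RPKM in cluster Tg and 29.5, 26.9 and 22.6 in WT and was not called (adjusted p = 0.294).

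Co-stimulatory and inhibitory receptors, which tune T cell activation, had 10 rises and no falls among 23 tested (43.5% higher, against 12.2% of all rows). Pdcd1, the inhibitory receptor PD-1, had 17.5, 14.4 and 13.8 RPKM in cluster Tg and 2.86, 2.99 and 2.85 in WT (2.05 ± 0.102, adjusted p = 0.000324). Lag3, which binds MHC class II, had 14.3, 13.7 and 11.4 against 2.57, 2.96 and 1.1, and Tigit 14.1, 9.16 and 7.63 against 2.09, 1.8 and 1.15. The co-stimulator Icos had 54.9, 42.8 and 46.8 RPKM in cluster Tg, against 23.3, 22.5 and 24 in WT. In none of these 4 did the genotypes overlap. The inhibitory receptor Ctla4 had 69.9, 54.4 and 32.7 RPKM in cluster Tg and 38.8, 34.4 and 17.5 in WT, which overlapped, and was not called (adjusted p = 0.176).

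Of 8 cytokine genes that passed the filter, 4 rose and none fell (50% higher, against 12.2% of all rows). Il21, Ifng and Tgfb3 were under 1 RPKM in all WT libraries and passed only through cluster Tg, so that they had to differ, and the count supports nothing about cytokines in general. Il21, the cytokine of follicular helper cells, had 2.11, 1.84 and 1.96 RPKM in cluster Tg and 0.168, 0.285 and 0.0837 in WT (1.34 ± 0.113, adjusted p = 0.00211). Ifng, the cytokine of type 1 helper cells, had 8.93, 4.9 and 2.45 against 0.483, 0.742 and 0.626 (1.86 ± 0.359, adjusted p = 0.016), and Tgfb3 9.21, 4.84 and 4.22 against 0.388, 0.468 and 0.425. Both of these were highest in cluster Tg replicate 1. Among 24 interleukin and interferon receptor chains, 10 rose (41.7%) and 2 fell, and 6 rose without WT replicate 1. Il10ra, the chain that binds interleukin-10, had 39.8, 30.3 and 28.5 RPKM in cluster Tg and 10.1, 13.6 and 11 in WT (1.43 ± 0.157, adjusted p = 0.00382). Il18r1, of the interleukin-18 receptor, had 83.2, 53.5 and 64.3 against 34.3, 29.9 and 23.9, and Il2rb, shared by the interleukin-2 and interleukin-15 receptors, 77.1, 58 and 46.3 against 20.4, 29.9 and 16.7. Of 16 TNF superfamily members, 8 rose (50%) and 1 fell, and 5 rose without WT replicate 1. The osteoclast factor Tnfsf11 had 16.6, 14.2 and 11.6 RPKM in cluster Tg against 3.47, 2.95 and 2.9 in WT, and Tnfsf14, a ligand known as LIGHT, 4.79, 4.2 and 4.38 against 0.9, 0.799 and 1.1.

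Genes of cell killing moved in both directions. Of 14 tested, 5 rose (35.7%, against 12.2% of all rows) and 3 fell (21.4%, against 9.54%), and the rises came to 3 without cluster Tg replicate 1, without cluster Tg replicate 3 or without WT replicate 1. Gzmk, a granzyme of memory T cells, had 18.9, 16.3 and 8.12 RPKM in cluster Tg and 0.3, 0.2 and 0.246 in WT (3.55 ± 0.284, adjusted p = 0.00171). Nkg7, a granule membrane protein, had 49.2, 29.8 and 15.8 against 2.17, 2.51 and 2.38 (3.14 ± 0.366, adjusted p = 0.00424). Both rises were called with each library left out. Gzmk passed the filter only through cluster Tg, so that it had to be higher there. Fasl, the death ligand, had 3.08, 3.38 and 3.7 RPKM in cluster Tg and 6.11, 7.17 and 6.37 in WT (-0.78 ± 0.0959, adjusted p = 0.00475), and the cathepsin Ctsw 29.7, 22.5 and 25.6 against 59.6, 50 and 64.2. The pore-forming Prf1 had 10.5, 10.6 and 10.8 against 13.7, 13.2 and 16.7, a call lost in 4 of the 6 fits with a library left out. The granzyme Gzmb did not pass the filter.

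Interferon-stimulated genes, the antiviral programme that interferons switch on, had 29 rises and no falls among 38 tested (76.3%, against 12.2% of all rows), with a median log2 fold change of 0.88. With each library left out, 24 of the 29 were called, and 19 were called in the fit of all 18 libraries. Ifit1, which binds foreign RNA, had 44.7, 40.3 and 49 RPKM in cluster Tg and 14.6, 11.2 and 16.3 in WT (1.61 ± 0.142, adjusted p = 0.0023). Its relative Ifit3 had 42.5, 29.1 and 33 against 9.82, 6.35 and 10.9, and the oligoadenylate synthetase Oas1a 19.4, 13.9 and 10.3 against 3.66, 3.98 and 3.99. Ifi27l2a, the most abundant protein-coding rise, had 1278, 1053 and 1069 RPKM in cluster Tg and 425, 390 and 390 in WT (1.49 ± 0.128, adjusted p = 0.00212). The regulators Irf7 (190, 152 and 121 against 84.1, 62.5 and 71.9) and Stat2 (65.4, 55.1 and 47.6 against 31.7, 27.7 and 25.2) rose with them, while the RNA sensor Ddx58 had 53, 48.4 and 48.4 RPKM in cluster Tg and 50.1, 48.9 and 52.3 in WT. Of the interferon genes, Ifng is given with the cytokines above, and the others were not among the lists.

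Promoters of these genes often carry the interferon-stimulated response element, and 5 windows show it in genes that rose. The motif searched was GAAA, any 2 bases, and GAAA again, on both strands, in the RefSeq promoters (GRCm38.p6) from 250 bases before to 50 bases after each gene's start; capitals mark the match, and each window is read 5′ to 3′ on the strand that holds it.
Ifit1, chromosome 19: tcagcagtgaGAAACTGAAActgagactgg
Ifit3, chromosome 19: gaggaaagtaGAAACTGAAAcagacttaaa
Oas1a, chromosome 5: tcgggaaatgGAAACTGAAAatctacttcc
Stat2, chromosome 10: ctagggaaagGAAACTGAAAccagggtgcg
Isg15, chromosome 4: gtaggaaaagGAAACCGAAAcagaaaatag
Of 28 interferon-stimulated genes with a promoter, 16 (57.1%) held the motif, against 3.06% of all 7871 tested genes with one. Genes with the motif were called higher in 19.9% of cases and genes without it in 11.7%. The genes with the motif include these 16, most of which rose, so this difference is not separate from the list described above. Ddx58, Gbp2 and Phf11b also held the motif and were not called. The difference was smaller for 4 other motifs searched in the same way. Those with the larger ones were AP-1 (TGANTCA, 15.6% with and 11.7% without) and NF-kB (GGGA, any 2 bases, and TTCC, 16.4% with and 11.8% without). AP-1 was found in 28.6% of the interferon-stimulated genes, against 4.4% of all, and among genes called higher by a log2 of 1 or more it was about as frequent (8.17%) as the response element (7.69%). The T-box motif (AGGTG followed by TGA) had 13.2% with and 11.9% without, and CCAAT 11.4% with and 12.3% without. A promoter was found for 74.7% of the tested rows, and matches to other interferon or IRF motifs overlap with these. A match is a run of letters and not a shown binding site.

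Markers of other cells were higher in the same libraries in which the effector and interferon genes were. In a bulk sample, more cells of a type and more RNA per cell cannot be told apart. Many listed markers did not pass the filter, and a low row passes more easily where it is high in 1 group. Of 17 listed B cell markers 9 were tested, and 8 of these rose (88.9%, against 12.2% of all rows). With each library left out 6 were called, and 0 in the fit of all 18 libraries. The summed level over the whole B cell list was 45.3 to 71.2 RPKM in cluster Tg and 26.7 to 38.3 in WT. The highest library was cluster Tg replicate 3, not replicate 1. Cd79b, of the B cell receptor, had 8.53, 6.17 and 15.2 RPKM in cluster Tg and 2.44, 1.5 and 1.46 in WT, and its partner chain Cd79a 3.86, 3.65 and 6.87 against 1.18, 1.05 and 1.46. MHC class II genes, whose reads can be shared between close copies, had 7 rises (87.5%) and 1 fall (12.5%, against 9.54% of all rows) among 8 tested of 10 listed. Their sum was 155 to 236 RPKM in cluster Tg and 78 to 98.1 in WT. The fall was the peptide loader H2-DMa, with 13.2, 12.6 and 13.6 against 26.7, 31.5 and 24.8.

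Of 12 listed CD8 T cell and thymocyte markers 8 were tested and 6 rose (75%, against 12.2% of all rows). Their sum was 192 to 238 RPKM in cluster Tg and 128 to 139 in WT. Cd8a had 11.2, 6.99 and 3.29 RPKM in cluster Tg and 0.211, 0.442 and 0.53 in WT, and the terminal transferase Dntt 24.9, 17.8 and 18.6 against 6.48, 6.29 and 7.93. The recombinase gene Rag2 was listed at 0 in all 6 libraries, and the pre-TCR chain Ptcra in all 3 of cluster Tg. Of 18 listed regulatory T cell markers 15 were tested and 10 rose (66.7%), at a summed 446 to 459 RPKM in cluster Tg and 267 to 315 in WT. The rises include Nrp1, Foxp3, the ectonucleotidases Nt5e and Entpd1, and the factor Ikzf2 (16.4, 9.47 and 7.68 RPKM against 1.79, 2.02 and 1.66). Myeloid markers had 4 rises (50%) among 8 tested of 28 listed, at 233 to 245 RPKM in sum against 175 to 194. The neutrophil genes Retnlg and Elane were listed at 0 in all 6 libraries. Killer lectin-like receptors and other NK genes had 2 rises (66.7%) among 3 tested of 16 listed, and 1 without WT replicate 1 or 3 or cluster Tg replicate 1. Their sum was 17.4 to 30 RPKM against 11.7 to 16.4. No erythroid or platelet marker of 3 was called, with Pf4 and Ppbp listed at 0. Several of these markers, among them Itgam, Ccr2, Eomes, Ikzf2 and Bst2, also belong to the effector, factor or interferon lists. The part of all these markers in the rises described above was not tested.

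**Figure D4:**
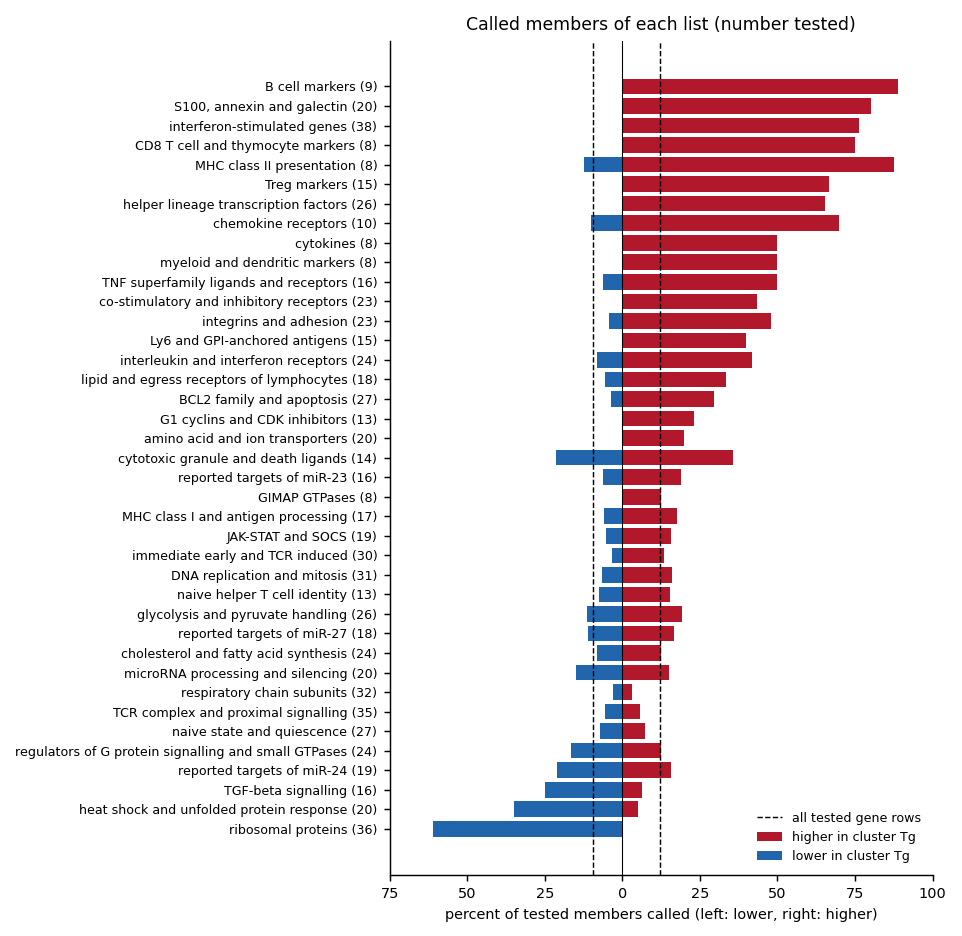
Percent of tested members called higher (red, right) and lower (blue, left) in cluster Tg for each gene list with at least 7 tested members, with the number tested in parentheses; dashed lines mark the 12.2% of all tested rows called higher and the 9.54% called lower. Interferon-stimulated genes (76.3% higher), S100 and annexin genes (80% higher) and ribosomal proteins (61.1% lower) lie far from the lines.

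In other lists of naive T cell biology the share called was below or near the 21.7% of all rows. Among 27 genes of the naive state and quiescence, 2 rose and 2 fell (14.8% called), and among 35 genes of the T cell receptor complex and its proximal signalling, 2 rose and 2 fell (11.4%). Of 32 respiratory chain subunits 1 rose and 1 fell (6.25%), of 30 immediate early and receptor-induced genes 4 rose and 1 fell (16.7%), and of 17 genes of MHC class I and antigen processing 3 rose and 1 fell (23.5%). Among the calls kept with each library left out were those of the phosphatase Ubash3b and the receptor-induced factor Egr2 (11.2, 11.5 and 12.1 RPKM against 7.48, 7.96 and 6.96). The 4 rises of immediate early genes came to 1 without WT replicate 1, WT replicate 3 or cluster Tg replicate 2, and to 2 without WT replicate 2 or cluster Tg replicate 1. The 3 of MHC class I came to 0 without WT replicate 1 and to 1 without any other library. The quiescence factor Klf2 had 130, 265 and 175 RPKM in cluster Tg and 327, 308 and 264 in WT; the ranges overlapped, and it was not called (adjusted p = 0.0909).

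Falls were smaller than rises, and 47 reached a log2 of 1. Rgs11, which shuts off G protein signals, had 2.02, 3.67 and 3.87 RPKM in cluster Tg and 17.2, 12.2 and 19.2 in WT (-2.05 ± 0.235, adjusted p = 0.00422). Rhob, a small GTPase of endosomes, had 2.32, 3.59 and 2.85 against 19.1, 17.1 and 11 (-2.07 ± 0.216, adjusted p = 0.00325). Fam46a, which encodes a poly(A) polymerase also called Tent5a, had 0.559, 1.53 and 1.93 RPKM in cluster Tg, against 8.27, 6.49 and 10.4 in WT. In each of these, all cluster Tg libraries lay far below all WT libraries, and the call was kept with each library left out. Gm13546, a row without a known role, had 1.18, 1.05 and 2.24 against 8.42, 17 and 19.3 and the most negative fold change (-2.63 ± 0.322, adjusted p = 0.00476). The lysosomal glucosidase Gaa had 5.07, 5.54 and 5.18 RPKM in cluster Tg and 14.7, 12.6 and 11 in WT, and the hairpin row Mir1931 rested on at most 5 reads in any library. None of Rgs11, Rhob and Gaa held a seed site for the 3 microRNAs in its 3′ UTR.

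Seed sites were sought as the 7 bases that pair with bases 2 to 8 of each mature strand, AATGTGA for miR-23, ACTGTGA for miR-27 and CTGAGCC for miR-24, in the 3′ UTRs of GENCODE vM21 (GRCm38). Of the 25 largest falls 19 had a 3′ UTR there, and 10 of them held at least 1 site and 6 at least 2. For comparison, 59.6% of all 9477 tested genes with a 3′ UTR held no site for any of the 3 microRNAs, and the others held at least 1. Of the 8 protein-coding genes among the largest rises 0 held a site, but their 3′ UTRs were short, with 92 to 724 bases, against 124 to 4249 bases in the 10 falls with a site. The windows below show some of the sites of 5 of the 10 falls, with the site in capitals and its place counted from the first base of the 3′ UTR.
Slc16a5, chromosome 11, miR-24 site at 547: attgagcagggcCTGAGCCagaatctcct
Slc16a5, chromosome 11, miR-24 site at 790: gctgctgctagcCTGAGCCcatggcctgg
Igfbp4, chromosome 11, miR-23 site at 406: ctccgattgtagAATGTGAcgaggtgttc
Igfbp4, chromosome 11, miR-24 site at 197: tacaggataagcCTGAGCCttctcgtgcc
Ppif, chromosome 14, miR-23 site at 667: gtctttctgctcAATGTGAattcccgtgg
Ppif, chromosome 14, miR-27 site at 569: tccctcctggtcACTGTGAatcctgctgg
Erp29, chromosome 5, miR-24 site at 106: agcaatgcaggcCTGAGCCagaagtctgt
Tmsb10, chromosome 6, miR-27 site at 111: gccacaagctgcACTGTGAaacccgggca

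The falls with sites were then set beside the libraries of the transgenics of a single family member, which share with the comparison the WT libraries by which the falls were chosen. The levels are therefore given side by side as a description, and no test was made. Slc16a5, a monocarboxylate transporter with 2 miR-24 sites, had 3.79, 4.79 and 6.65 RPKM in cluster Tg, and 6.19, 4.01 and 6.64 in miR-24 Tg, against 19.4, 23.2 and 26.2 in WT (-1.99 ± 0.19, adjusted p = 0.00262 for cluster Tg against WT). It was also below all WT libraries in miR-23 Tg (9.25 to 13.4) and miR-27 Tg (6.3 to 11.7), for which its 3′ UTR held no site. Erp29, a chaperone of the endoplasmic reticulum with 3 miR-24 sites and 1 for miR-23, had 24.2, 31 and 38.4 RPKM in cluster Tg and 24.6 to 31.9 in miR-24 Tg, against 66.2 to 74.4 in miR-23 Tg and 66.8, 67.1 and 70.5 in WT. The miR-23 Tg libraries overlapped with those of WT. In miR-27 Tg, for which Erp29 held no site, replicates 1 and 2 were below WT, at 53.2 and 55.9 RPKM, and replicate 3, a library that stood apart from the rest of the series, was at 213.7.

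Igfbp4, which binds insulin-like growth factors and held 2 miR-23 and 3 miR-24 sites, had 231, 315 and 271 RPKM in cluster Tg, 217 to 334 in miR-23 Tg and 146 to 199 in miR-24 Tg, against 467 to 1024 in miR-27 Tg and 687, 902 and 475 in WT (-1.30 ± 0.248, adjusted p = 0.0155). Its miR-27 Tg libraries overlapped with WT, and its call in cluster Tg was lost in 2 of the 6 fits with a library left out. Ppif, the cyclophilin of the mitochondrial permeability pore, held 2 miR-23 sites and 1 for miR-27. Its level was 12.2, 12.5 and 8.95 RPKM in cluster Tg, 19.1 to 22.8 in miR-23 Tg and 8.82, 9.44 and 15.6 in miR-27 Tg, against 24.5 to 26.9 in miR-24 Tg and 28.3, 28.4 and 25.9 in WT (-1.24 ± 0.128, adjusted p = 0.00317). The kinase Matk, with 1 miR-24 site, had 5.22, 7.56 and 7.39 RPKM in cluster Tg and 4.91 to 8.67 in miR-24 Tg, against 18.5, 14.6 and 16.5 in WT, and 10.6 to 11.7 in miR-23 Tg without a miR-23 site.

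In the remaining 5 genes the levels varied in the same way, with and without sites. Ndufa3, a subunit of respiratory complex I with 1 miR-23 site, had 84.5, 94.7 and 141 RPKM in cluster Tg and 173 to 193 in miR-23 Tg, against 252, 302 and 266 in WT; its miR-27 Tg replicates 1 and 2 were as low (167 and 163) without a miR-27 site. The row 1700056E22Rik, with 1 miR-23 and 1 miR-27 site, had 0.835, 2.4 and 1.38 RPKM in cluster Tg, while its miR-23 Tg (3.24 to 7.59) and miR-27 Tg (2.35 to 11.4) libraries overlapped with the 6.23, 4.67 and 4.43 of WT. Tmsb10, an actin-binding thymosin with 1 miR-27 site, had 83.2, 130 and 157 RPKM in cluster Tg, against 391, 361 and 439 in WT. In miR-27 Tg it had 169, 166 and 872 RPKM, and the highest value again came from replicate 3. Tmsb10 was also below all WT libraries in miR-24 Tg (258 to 285), for which its 3′ UTR held no site. Cnga1, with 1 miR-23 and 1 miR-24 site, had 1.38, 2.74 and 3.22 RPKM in cluster Tg, while its miR-23 Tg (4.73 to 7.1) and miR-24 Tg (4.51 to 5.67) libraries overlapped with the 5.77, 5.53 and 8.66 of WT. The motor protein Myo6, with 1 miR-23 site, had 0.832, 1.03 and 1.14 RPKM in cluster Tg and 0.947 to 1.23 in miR-23 Tg, but also 1.27 to 2.62 in miR-24 Tg, against 3.5, 10.3 and 3.54 in WT. In DKO libraries none of the 10 had all 3 libraries below WT.

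**Figure D5:**
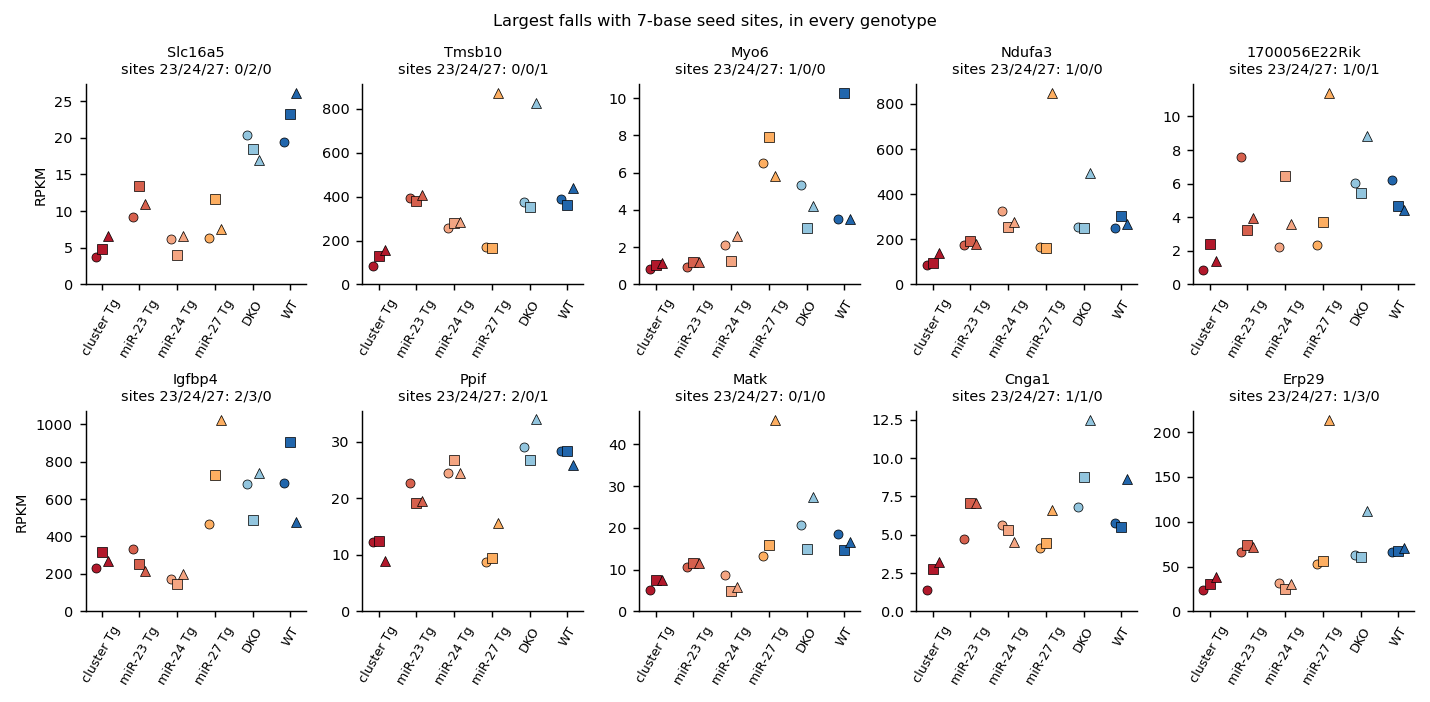
RPKM in all 18 libraries of the series of the 10 largest falls that hold a 7-base seed site, with the site counts for miR-23, then miR-24, then miR-27 above each panel (for Erp29 1, 3 and 0) and 1 point per library; marker shapes only separate libraries. Igfbp4 and Erp29 are lower in cluster Tg and miR-24 Tg than in miR-27 Tg, while Ppif is lowest in cluster Tg and miR-27 Tg.

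Over all 9477 tested genes with a 3′ UTR, those with a site were called lower somewhat more often. Genes with at least 1 site were called lower in 12.1% of cases for miR-23, 12.9% for miR-27 and 12.1% for miR-24, against 9.09%, 8.9% and 8.97% of genes without one. With 2 or more sites the shares were 15.2%, 13.6% and 15.3%. Genes with a site were called higher in 11.4%, 11.9% and 10.5% of cases, against 12.9%, 12.8% and 13.1% of genes without one. Their median log2 fold changes were -0.0087, -0.0212 and -0.0283, against 0.0003, 0.0025 and 0.0044 without one. The same search with the seeds of the other strands of the 3 hairpins, the passenger strands, gave 9.79%, 11.1% and 8.13% called lower. Genes with a site have longer 3′ UTRs, with medians of 2499, 2298 and 2230 bases against 967, 969 and 959 without one. In each of 15 combinations of microRNA and class of 3′ UTR length, genes with a site had the lower median and the higher share of falls, and in 3′ UTRs of up to 500 bases the shares were 22.5% against 10.5% for miR-23, 20.4% against 10.5% for miR-27 and 14% against 10.8% for miR-24. In 3′ UTRs of over 4000 bases they were 8.33% against 6.31%, 7.72% against 6.88% and 9.48% against 5.3%. Genes with sites for 0, 1, 2 and 3 of the microRNAs were called lower in 7.87%, 11.5%, 14.2% and 10.4% of cases; 134 genes held sites for all 3.

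Genes named in earlier work as targets of the 3 microRNAs were called in both directions. Of 16 such genes for miR-23, 3 rose and 1 fell (6.25% lower, against 9.54% of all rows). Of 19 for miR-24, 3 rose and 4 fell (21.1% lower), and of 18 for miR-27, 3 rose and 2 fell (11.1% lower). The fall for miR-23 was Ppif. Those for miR-24 were Fasl, the histone variant H2afx (8.25, 15.4 and 11.8 RPKM against 25.1, 24.5 and 21.6), the kinase Nlk (13.4, 17.9 and 18.1 against 30.5, 27 and 32.1) and the activin receptor Acvr1b (15.4, 18.2 and 19.8 against 30.1, 25 and 25.1). Fasl held 1 miR-24 site, H2afx and Acvr1b 2 each, and Nlk 0. Without WT replicate 1, 2 of these 4 were called, and without WT replicate 2 the rises came to 5. For miR-27 the kinase Hipk2, with 2 sites (3.83, 5.16 and 4.31 RPKM against 8.01, 7.62 and 6.74), and the adaptor Grb2, with 1 site, fell, and the Grb2 call was lost without WT replicate 1, WT replicate 2 or cluster Tg replicate 1. Ifng held 2 miR-27 sites and rose, and Il2rb and Icos, both listed as miR-27 targets, rose without a miR-27 site.

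Ribosomal protein genes were lower in cluster Tg, and the number called depended on which libraries were used. Of 36 tested, 22 fell and none rose (61.1%, against 9.54% of all rows), with a median log2 fold change of -0.73. Rps20 had 484, 691 and 788 RPKM in cluster Tg and 1661, 1674 and 1488 in WT (-1.32 ± 0.209, adjusted p = 0.00911), and Rpl35 112, 129 and 156 against 241, 272 and 240 (-0.93 ± 0.132, adjusted p = 0.0069). In both, cluster Tg replicate 1 was lowest and replicate 3 highest. The sum over the 36 was 14700, 18700 and 21900 RPKM in cluster Tg and 31100, 31900 and 29900 in WT. The 22 calls became 9 without cluster Tg replicate 1, 6 without cluster Tg replicate 2 and 23 without cluster Tg replicate 3. They became 6 without WT replicate 1, 6 without WT replicate 2 and 9 without WT replicate 3. They became 14 with quantile normalisation or with libraries rescaled without the hairpins, and 0 in the fit of all 18 libraries. Reads of these genes can be shared with their many pseudogenes. The elongation factor Eef1a1 was lower too, with 1387, 1567 and 1861 RPKM in cluster Tg against 2618, 2786 and 2526 in WT, a call lost in 5 of the 6 fits with a library left out.

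Several chaperones fell. Of 20 heat shock and unfolded protein response genes, 7 fell (35%, against 9.54% of all rows), 1 rose and 12 were not called; 3 falls were called with each library left out, 3 fell without cluster Tg replicate 2, WT replicate 2 or WT replicate 3, and 1 in the fit of all 18 libraries. Hsph1, a nucleotide exchange factor of HSP70, had 42.7, 42.4 and 39.7 RPKM in cluster Tg and 78.6, 92 and 79 in WT (-0.98 ± 0.0819, adjusted p = 0.00204), and the mitochondrial chaperonin Hspd1 20.2, 22.7 and 26 against 35.5, 42.7 and 41.2. Hsp90ab1, the most abundant of them, had 661, 643 and 632 RPKM in cluster Tg against 904, 926 and 928 in WT.

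In metabolism and signalling, most members of the lists were not called. Pdk1, the kinase that keeps pyruvate out of the mitochondrion, had 42.1, 51.9 and 51.9 RPKM in cluster Tg and 99.2, 94.6 and 94.5 in WT (-0.97 ± 0.0946, adjusted p = 0.00273). Of 26 glycolysis and pyruvate genes 5 rose (19.2%, against 12.2% of all rows) and 3 fell (11.5%, against 9.54%), but the rises came to 1 without cluster Tg replicate 1 or 2 or without WT replicate 1 or 3, while the falls of Pdk1 and Slc16a5 were kept throughout. Fatty acid synthase Fasn had 16.3, 22.2 and 19.9 RPKM in cluster Tg against 33.1, 33 and 31.9 in WT, and the desaturase Scd2 28.8, 29 and 30.7 against 19.7, 21.3 and 19.6. The potassium channel Kcna3, which sustains calcium entry, had 42.4, 45.5 and 46 RPKM in cluster Tg and 24.6, 19.2 and 22.7 in WT (0.98 ± 0.0984, adjusted p = 0.00299). Of 16 genes of TGF-beta signalling 4 fell (25%) and 1 rose, the coreceptor Eng (8.29, 4.38 and 2.92 against 0.5, 1.23 and 0.734); the falls came to 1 without WT replicate 1 or cluster Tg replicate 2 and to 2 without WT replicate 2 or cluster Tg replicate 1. The receptors Tgfbr1 and Tgfbr2 were not called.

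Among 27 genes of the BCL2 family and apoptosis 8 rose (29.6%, against 12.2% of all rows) and 1 fell, and 4 rose without cluster Tg replicate 1 and 5 without cluster Tg replicate 2. Bid, which links death receptors to mitochondria, had 7.03, 6.79 and 6.57 RPKM in cluster Tg and 11.7, 13.2 and 12.7 in WT (-0.79 ± 0.0733, adjusted p = 0.00254). The survival factor Bcl2l2 had 4.83, 4.24 and 4.02 against 1.14, 1.84 and 1.07. Of 31 genes of DNA replication and mitosis 5 rose (16.1%) and 2 fell (6.45%), near the 12.2% and 9.54% of all rows. The rises came to 13 without WT replicate 2 and to 2 without any of cluster Tg replicates 1, 2 and 3 or WT replicate 1, and the cell cycle transcription factor E2f2 (18.6, 16.7 and 17.1 RPKM against 8.41, 10.9 and 7.74) and the helicase Mcm7 were the 2 rises called in all 6 fits. The inhibitor Cdkn2c, which blocks CDK4 and CDK6, had 14.2, 8.91 and 8.82 RPKM in cluster Tg, against 2.34, 4.47 and 2.57 in WT.

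Cluster Tg was also set against the mean of the 3 transgenics of a single member, a contrast without WT. Limma called 326 of 10538 rows (3.09%), 224 higher and 102 lower. Gpm6b averaged 13.4 RPKM in cluster Tg, against 0.872 in miR-23 Tg, 3.1 in miR-24 Tg and 4.77 in miR-27 Tg (2.05 ± 0.164, adjusted p = 2.41e-05). Gzmk averaged 14.5 RPKM in cluster Tg, against 1.12, 3.84 and 4.92 in the same 3 transgenics (1.92 ± 0.224, adjusted p = 0.000716). Angptl2 (1.68 ± 0.132, adjusted p = 2.41e-05) and Axl (1.75 ± 0.186, adjusted p = 0.000609) were higher than the mean of the single transgenics too. Gpm6b, Gzmk, Angptl2 and Axl passed the filter only through cluster Tg, which favours a higher value of cluster Tg in this contrast as well. Tmem176b was higher than that mean (2.12 ± 0.292, adjusted p = 0.00169), but its 70.8 RPKM in cluster Tg stood beside 82.5 in miR-27 Tg, with 3.06 in miR-23 Tg and 11.9 in miR-24 Tg. Below the mean were Rgs11 (-0.92 ± 0.14, adjusted p = 0.0028), Fam46a (-1.35 ± 0.2, adjusted p = 0.00243), Gaa (-0.63 ± 0.0996, adjusted p = 0.00351) and Ppif (-0.64 ± 0.144, adjusted p = 0.0257). Ccl5 was not called in this contrast (0.66 ± 0.475, adjusted p = 0.592), with 26.5 RPKM in cluster Tg, 35.1 in miR-24 Tg and 37.2 in miR-27 Tg. The 326 calls became 54, 148 and 164 with 1 of the 3 cluster Tg libraries left out.

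Within cluster Tg, the libraries differed in hairpin level, with replicate 1 highest and replicate 3 lowest, and the genes were sorted by whether they followed that order. All 6 orders of 3 libraries are possible for a gene. The order of the hairpins was followed by 20.4% of all tested rows, by 34.9% of the rows called higher and by 52.6% of the 306 rows called higher by a log2 of 1 or more. The reverse order was followed by 21.7% of all rows, by 7.64% of those called higher and by 37.5% of those called lower. S100a6, S100a4, Gzmk, Cxcr3, Ly6c2, Ccl5 and Tbx21 are among those that followed it, and Slc16a5, Tmsb10 and Rps20 among those in the reverse order. Gpm6b, Maf and Cxcr5 held near the same level in all 3 libraries, and B cell markers were highest in replicate 3. The sex-linked transcripts were ordered too, with Xist at 96.95, 45.8 and 0.0449 RPKM in cluster Tg replicates 1 to 3 and Ddx3y at 0.00719, 20.1 and 43.45. A relation with hairpin level cannot be tested over 3 libraries, nor told apart from one with these transcripts.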

How the data were processed

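RPKM values for 18 libraries were deposited by the authors in 1 table as read densities corrected for transcript length and depth. Of tools and builds, the submitters' processing notes name STAR 2.2.0c, HOMER and mm9 without saying what each was used for; the gene models, the use of strand and the treatment of shared reads are unknown here, so values of paralogs, pseudogenes and overlapping or antisense genes are uncertain. The lists, named genes and tests were chosen with earlier results of these data known. A few genes are not reported here.

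Rows with 1 RPKM or more in at least 3 of the 6 libraries were tested on log2(RPKM + 1), a scale that understates changes of low genes, with limma 3.58.1 (R 4.3.3, moderated statistics with a variance trend), Benjamini-Hochberg adjusted over all 10538 rows and called under 0.05. The contrast with single transgenics used all 18 libraries. Genes named are the 25 largest called changes in each direction without overlap and with at least 5 RPKM in the higher group, the 8 most abundant calls in each direction, and list members. Tested on data simulated for 10538 rows, the comparison called 81 of 100 rows changed by a log2 of 1, 38 of 100 changed by 0.5, and 3 of 10338 unchanged. In the simulation each row varied independently, while differences between real libraries can be shared by many genes. The share of false calls in these libraries is therefore not known from it. With 3 libraries a group, exact permutation of 1 gene cannot give a p under 0.1. Over the tested rows the median SE was 0.102. Of the gene symbols 27 had become calendar dates (13 among the tested rows).

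Whole reads were recovered for hairpin rows from multiples of the smallest step (within 0.05 of a read). Depth was estimated from 307 genes with a single transcript, whose lengths appear shortened by about 122 bases; RPKM hold no depth of their own, and no counting interval is given. GENCODE and RefSeq tables of another build than mm9 served for names and sequences only; 89.9% of the tested rows had a 3′ UTR. Alternatives were other pseudocounts, filters, scalings, libraries, variance models, a replicate block, and each library left out.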

Additional observations from a re-analysis of the deposited data

How the results depend on the processing

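The count of 2288 calls stayed within 1.5 times under 11 other settings tried, from 1827 with a filter of 5 RPKM to 3187 in a fit of 16 libraries that left out replicate 3 of miR-27 Tg and of DKO, and came to 915 in the fit of all 18 libraries (608 higher and 307 lower), where the spread is shared with libraries that stood apart. With each library left out in turn, the total ranged from 1228 to 1805, the rises from 764 to 977 and the falls from 423 to 828. The falls came to 587 after the hairpins were taken out and libraries rescaled to equal sums. The contrast with the single transgenics gave 210 calls with a filter of 5 RPKM, 1782 without the 2 libraries that stood apart, and 54 to 164 with a cluster Tg library left out. The cause of these shifts was not tested.

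The values do not settle whether replicate numbers pair the libraries. Deviations of libraries with the same number correlated at -0.0951, -0.0378 and 0.234, and those of libraries with other numbers at -0.185 to 0.22. With a replicate block 2050 rows were called (1181 higher and 869 lower), and 274 against the single transgenics. Of 335 named genes, all of them called in the main comparison, 203 were called with each library left out and 288 with the block. None reversed its direction under any setting. Most settings could not have reversed one, because the genotypes did not overlap in any called row. With a seed match of 6 bases, 10% (miR-23), 10.5% (miR-27) and 11.5% (miR-24) of genes with a site were called lower. Without such a site the shares were 9.3%, 8.74% and 8.49%. Depth limits the hairpin rows outside the cluster, which rested on few reads.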
